A study of Homo sapiens with 4 samples.

Results

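The acyl-CoA synthetase genes examined here comprise 10 members taken by symbol, out of 56832 genes in the deposited table. They are the long-chain enzymes ACSL1, ACSL3, ACSL4, ACSL5 and ACSL6, the medium-chain enzymes ACSM3 and ACSF2, and the short-chain enzymes ACSS1, ACSS2 and ACSS3. All 10 were found in the table, and all 10 passed the filter on low values. The cells were A375, an established human melanoma cell line labelled wild type, grown in DMEM with 10% serum. One group of 2 libraries received 1 mM octanoate, a saturated medium-chain fatty acid, for 48 h, and the other group of 2 received the isopropanol vehicle for the same time. According to the series description, the aim was to profile expression for targets with higher levels after treatment and for enriched gene signatures.

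Acyl-CoA synthetases couple a free fatty acid to coenzyme A at the cost of ATP. This activation step precedes nearly every use of a fatty acid, including beta-oxidation, building into phospholipids and triglycerides, and protein acylation. Family members differ in the chain length they prefer and in the membrane or compartment where they act. Octanoate can cross mitochondrial membranes without the carnitine shuttle and is activated mainly by medium-chain synthetases in the matrix, whereas the ACSL enzymes act mostly on longer chains.

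Values are normalised read counts, which are whole reads divided by 1 size factor per library. They were compared between the groups with limma on a log2(normalised count + 1) scale, over 20250 genes with a mean of at least 10. Benjamini-Hochberg adjustment ran over all of these genes, and calls were made at an adjusted p below 0.05. Read totals were between 67785956 and 78005035 per library. The labels do not say whether the libraries of a group came from separate cultures, so the spread between libraries may be technical. The p-values use that spread after limma moderates it towards the spread of genes of similar mean count. With 2 libraries a group, they therefore rest in large part on the spread of other genes.

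Marker genes were read as a partial check on the melanoma identity of the cells. SOX10, the lineage factor of melanocytes, stood between 34071.6 and 41363.3 normalised counts in the 4 libraries. The pigment gene TYR stood between 1.93 and 3.93, so that this pigment gene was close to absent. The 7 melanoma and melanocyte markers summed to 49273.5 and 44995.6 in vehicle and to 43593.6 and 38498.7 in octanoate. SOX10 made up most of these sums, so the check rests mainly on that gene. Of 6 tested melanoma and melanocyte markers 1 was called higher (PMEL) and 2 lower (MITF and S100B) under octanoate. Of 14 markers of keratinocytes, fibroblasts, endothelial cells and leukocytes, 9 were tested, and 2 were called higher and 3 lower under octanoate. Beside both counts, 16.2% of all tested genes were called higher and 13.7% lower. The summed keratinocyte markers were 1123 and 949.5 in vehicle and 268.5 and 221.1 in octanoate, nearly all of it KRT14, with KRT1 at 0 in every library. Summed fibroblast markers were between 1087 and 1111 in vehicle and between 901.9 and 917.9 in octanoate. Summed endothelial markers were 207.1 and 200.5 against 347.5 and 338.1, and summed leukocyte markers were between 25.03 and 35.3 in all 4 libraries. The part of these marker shifts in the members' changes was not tested. The libraries come from 1 established cell line, so these values are transcript levels in that culture and not a count of other cell types.

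Under octanoate the long-chain synthetases ACSL3 and ACSL4 and the scarce medium-chain synthetase ACSM3 rose, and the mitochondrial acetate enzyme ACSS1 fell. A small rise of ACSS3 passed the threshold only narrowly. In all, 4 of the 10 members were called higher, where 16.2% of all tested genes were, and 1 was called lower, where 13.7% of all tested genes were. In either direction this is 5 of 10 members against 29.9% of tested genes. The groups did not overlap for 7 members, and for 63.1% of all tested genes. The median log2 difference was 0.13 over the members and 0.01 over all tested genes.

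**Figure D1:**
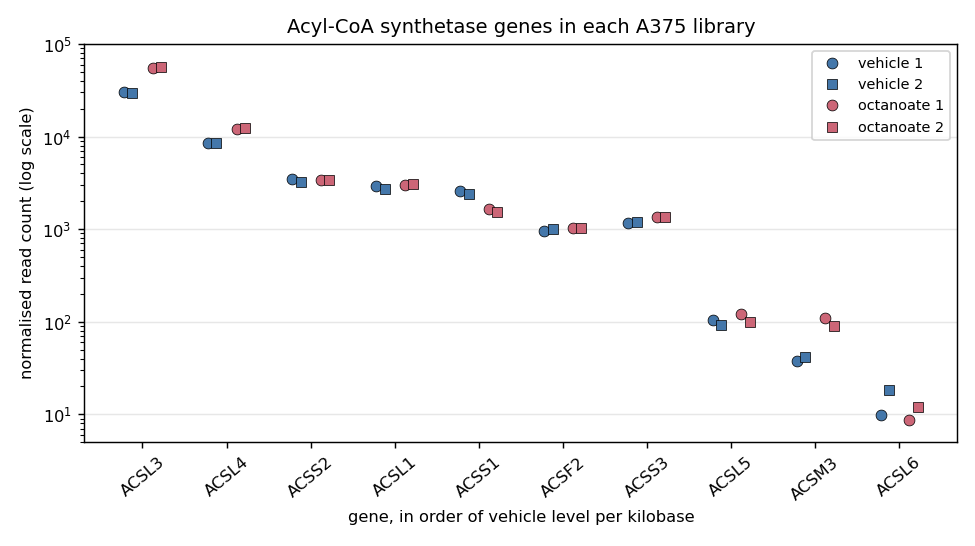
Normalised read count (log scale) of each member in each of the 4 libraries, with vehicle in blue and octanoate in red and the replicate number shown by the marker shape. ACSL3, ACSL4, ACSM3 and ACSS3 lie above vehicle in both octanoate libraries, and ACSS1 lies below it in both. ACSL1 and ACSF2, which were not called, also lie above vehicle in both, by small gaps.

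ACSL3, whose product sits on the endoplasmic reticulum and on lipid droplets and activates long-chain acids, was the most abundant member and rose the most in absolute terms. Its normalised counts were 30149.1 and 29261.7 in vehicle and 54637.9 and 56407.4 in octanoate. Both octanoate libraries stood far above both vehicle libraries, and the libraries of a group differed by little. The means were 29705 ± 627 and 55523 ± 1251 (SD, n = 2 each). On the log2 scale octanoate exceeded vehicle by 0.90 (SE 0.06, limma adjusted p = 1.56e-11), or 1.87-fold with a 95% interval of 1.72 to 2.03. ACSL3 ranked 782 of 20250 tested genes by rise, but 18 of the 1566 genes with a mean of at least 10000. It is ENSG00000123983.13, on chromosome 2 from 222860934 to 222944639 on the plus strand (GENCODE 29, GRCh38).

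ACSL4, which prefers arachidonate and other polyunsaturated acids and is known for its role in ferroptosis, rose by a smaller factor. Its normalised counts were 8463.9 and 8574.2 in vehicle and 12170.4 and 12499.8 in octanoate. Again the groups were well apart, with means of 8519 ± 78.0 and 12335 ± 233 (SD, n = 2 each). The log2 difference was 0.53 (SE 0.06, limma adjusted p = 6.53e-08), or 1.45-fold with a 95% interval of 1.34 to 1.57. ACSL4 lies on chromosome X from 109624244 to 109733403 on the minus strand, and its exons share 78 bases with KCNE5 on the same strand.

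The coding sequences of ACSL3 and ACSL4 were the most alike of all 45 pairs of members, with 66.2% identical positions in a global alignment. ACSL1, ACSL5 and ACSL6 formed the other close group, with 59.7% to 63.8% identity among them. ACSL3 shared 50.6% with ACSL1, and ACSS1 shared 54.8% with ACSS2. ACSL3 and ACSL4 both rose, and none of ACSL1, ACSL5 and ACSL6 was called. ACSL5 and ACSL6 were scarce, and the 95% intervals of their log2 differences reached up to 0.52 and 0.62. The log2 difference of ACSL4 was 0.53, so a rise of about that size could have been missed in both. Whether the changes follow sequence was not tested. ACSM3 and ACSS3, which were also called higher, are not close to them in sequence, and ACSL3 shared 45.5% with ACSM3. No transcript stretch of at least 100 bases at 95% identity was shared between ACSL4 and any other gene, and ACSL3 shared only 106 bases with the antisense gene AC013476.1.

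Because ACSL3 and ACSL4 rose together, the sequences just upstream of their starts are shown, from RefSeq's promoter table (GRCh38.p14), 5′ to 3′ on the gene's strand. The windows end at the most upstream start in GENCODE 29, at chr2:222860786-222860933 (plus strand) and chrX:109733404-109733507 (minus strand). Capitals mark GC boxes, the letters GGGCGG on either strand.
ACSL3: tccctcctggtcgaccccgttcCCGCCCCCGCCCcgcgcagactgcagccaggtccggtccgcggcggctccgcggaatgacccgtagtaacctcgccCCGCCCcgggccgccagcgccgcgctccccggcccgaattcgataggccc
ACSL4: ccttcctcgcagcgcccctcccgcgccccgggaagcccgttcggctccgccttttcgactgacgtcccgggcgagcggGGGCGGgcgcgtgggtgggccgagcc
Both are rich in G and C, with 75.2% and 77.2% over the 250 bases before the RefSeq start, against a median of 58.0% over 35116 promoters. The same held for ACSL1, which was not called, at 83.6%, and for ACSS1, which fell, at 77.2%. The 250 bases reach past the printed windows by 102 bases in ACSL3 and 146 bases in ACSL4, which are not shown because they are transcribed in GENCODE 29. Within the 250 bases ACSL3 and ACSL4 held 3 GC boxes each, of which ACSL4 has 1 in the window shown, and 42.6% of all promoters held the motif. ACSL1 held 6 and ACSS1 held 4. ACSM3 and ACSS3, also called higher, had no entry in the promoter table, and a part of GC boxes in the changes was not tested. Neither ACSL3 nor ACSL4 held the PPAR-RXR direct repeat 1 (AGGTCA repeated with 1 base between the copies) or the half-site AGGTCA itself. Both also lacked the LXR-RXR direct repeat 4 (AGGTCA repeated with 4 bases between) and the sterol response element TCACNCCAC. The ATF4-C/EBP element TGATGNAA, the E-box CACGTG and the cyclic AMP response element TGACGTCA were absent from both too. All were searched on either strand. These absent motifs are found in 0.0171%, 12.1%, 0.0142%, 0.883%, 3.14%, 6.34% and 1.65% of all promoters in the same order. A CCAAT box, present in 32.0% of promoters, was found in ACSL3, downstream of the window shown, and not in ACSL4. These are matches of letters in a short window, and the half-site is part of both repeats. Of the 10 members, 8 had an entry in the table, and 5 had one within 1000 bases of the annotated gene start and were searched (ACSL1, ACSL3, ACSL4, ACSL6 and ACSS1).

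The other long-chain members were not called. ACSL1, a major long-chain enzyme of liver, fat and muscle and a known target of PPAR receptors, stood at 2904.4 and 2737.9 normalised counts in vehicle and at 2969.4 and 3044.2 in octanoate. Both octanoate libraries were above both vehicle libraries, and the gap between the groups was smaller than the one between the vehicle libraries. Its log2 difference was 0.09 (SE 0.06, limma adjusted p = 0.289), with a 95% interval from -0.04 to 0.22, which leaves out a rise of the size of ACSL3 or ACSL4. ACSL5, which acts at the outer mitochondrial membrane and in the gut, was scarce, with 105.03 and 93.01 normalised counts in vehicle and 122.2 and 99.7 in octanoate. The ranges overlapped, the log2 difference was 0.16 (SE 0.17, limma adjusted p = 0.540), and its interval from -0.20 to 0.52 is wide. ACSL6, known from brain and red cell precursors, had 10 and 19 reads in vehicle and 9 and 11 in octanoate, and the groups overlapped. The 95% interval of its log2 difference ran from -1.37 to 0.62 (limma adjusted p = 0.609), so a difference was not detectable at this depth. ACSL6 shares 1990 bases at 98.6% identity with AC026398.1, so even these few reads are uncertain.

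Among the medium-chain synthetases, ACSM3, a mitochondrial enzyme that activates medium-chain acids, rose the most of all members by ratio. Its normalised counts were 37.3 and 41.7 in vehicle and 108.8 and 88.9 in octanoate, resting on 38, 43, 113 and 82 reads. Both octanoate libraries stood well above both vehicle libraries. The log2 difference was 1.30 (SE 0.21, limma adjusted p = 5.03e-05), or 2.46-fold with a 95% interval of 1.81 to 3.34. ACSM3 has an uncertainty of its own: in GENCODE 29 its exons share 867 bases with exons of ERI2 on the opposite strand, and whether counting used strand is not given in the sources used here. ERI2 was far more abundant, with means of 1727 ± 25.5 under vehicle and 1827 ± 88.5 under octanoate (SD, n = 2 each), and was not called (log2 difference 0.08, limma adjusted p = 0.410).

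ACSF2, the other medium-chain enzyme and also mitochondrial, was not called. It stood at 958.0 and 1010.5 normalised counts in vehicle and at 1019.3 and 1020.9 in octanoate. The octanoate values were just above both vehicle values, with a gap smaller than the one between the vehicle libraries. The log2 difference was 0.05 (SE 0.08, limma adjusted p = 0.662), with a 95% interval from -0.11 to 0.21.

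The 3 short-chain enzymes went different ways. ACSS1, which makes acetyl-CoA from acetate inside mitochondria, was the member that fell, from 2578.5 and 2407.6 normalised counts in vehicle to 1667.1 and 1518.3 in octanoate. The groups were well apart, with means of 2493 ± 121 and 1593 ± 105 (SD, n = 2 each). The log2 difference was -0.65 (SE 0.07, limma adjusted p = 1.05e-07), or 0.639-fold with a 95% interval of 0.578 to 0.705. ACSS1 lies on chromosome 20 from 25006230 to 25058980 on the minus strand, overlaps no other gene's exons in GENCODE 29 and shares no long stretch with another gene.

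ACSS2, the cytosolic and nuclear counterpart of ACSS1 and a known target of the sterol-regulated factors SREBP, did not follow it. It stood at 3448.2 and 3225.3 normalised counts in vehicle and at 3432.4 and 3423.5 in octanoate, so the octanoate values lay inside the vehicle range. Its log2 difference was 0.04 (SE 0.06, limma adjusted p = 0.681), with a 95% interval from -0.09 to 0.17. Per kilobase of exon, ACSS2 exceeded ACSS1 by 2.16-fold in both vehicle libraries and by 3.32-fold and 3.64-fold in the octanoate libraries.

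ACSS3, a mitochondrial enzyme that prefers propionate, stood at 1162.1 and 1182.9 normalised counts in vehicle and at 1367.8 and 1353.6 in octanoate. The groups did not overlap, and the log2 difference was 0.21 (SE 0.07, limma adjusted p = 0.0253). This call is not firm: it was lost under 7 of the 14 alternatives, each time that 1 library was left out among them. With a library left out, the gene's own spread comes from the other group alone. Over all alternatives its log2 difference stayed between 0.20 and 0.23. In the authors' deposited table ACSS3 had an adjusted p of 0.0813. Exons of ACSS3 share 1686 bases with PPFIA2 and 285 bases with LIN7A on the opposite strand. LIN7A rose too, from 95.9 ± 23.2 to 150.2 ± 5.45 normalised counts (SD, n = 2 each; log2 difference 0.66, limma adjusted p = 0.00525), and PPFIA2 had a log2 difference of 0.72 (limma adjusted p = 0.0713).

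**Figure D2:**
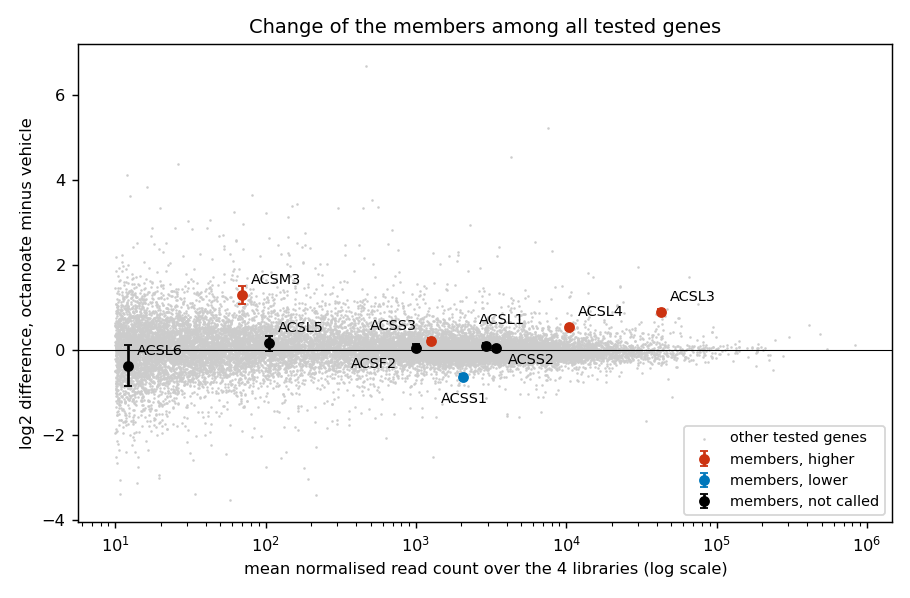
Log2 difference of octanoate minus vehicle against the mean normalised count (log scale) for all tested genes in grey and the 10 members in colour, with standard errors as bars. ACSL3 at 0.90 and ACSL4 at 0.53 lie towards the upper edge of the grey genes of their abundance, ACSS1 at -0.65 towards the lower edge, and the wide bar of ACSL6 shows how little its few reads say.

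In the authors' deposited table, 4 of the 10 members had an adjusted p under 0.05, where 12.9% of the genes in that table had one. Its log2 fold changes for these in the authors' deposited table were 0.90 for ACSL3, 0.53 for ACSL4, 1.33 for ACSM3 and -0.65 for ACSS1. The 4 members are those named above as changed, without ACSS3. The 12.9% is a share of 33533 genes, which include genes below the mean of 10 required here. It is therefore not a share among genes of like abundance. With DESeq2 on recovered reads of genes with a mean of at least 10, 30.3% of 16324 genes were called. In that fit 4 of 9 members were called.

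Levels of different genes can be compared only per length, so normalised counts were divided by the length of the union of each gene's exons in GENCODE 29. In vehicle ACSL3 led with 4103 ± 86.7 normalised counts per kilobase (SD, n = 2), 3.09 times the level of ACSL4 at 1328 ± 12.2. ACSS2 at 619.6 ± 29.3, ACSL1 at 448.9 ± 18.7, ACSS1 at 286.9 ± 13.9 and ACSF2 at 169.8 ± 6.40 per kilobase followed. ACSS3 at 82.0 ± 1.03, ACSL5 at 23.4 ± 2.01, ACSM3 at 5.05 ± 0.394 and ACSL6 at 1.08 ± 0.467 per kilobase closed the order. The 2 vehicle libraries of each gene lay above both libraries of the next gene at every step, so no neighbours in the order overlapped. With this length the order was the same in octanoate. With coding length in place of the union of exons, ACSF2 and ACSS3 changed places in both groups, and in octanoate ACSM3 passed ACSL5. With the longest transcript, ACSF2 passed ACSS1 in octanoate. This matters most for ACSS3, whose exons add up to 14301 bases with a coding part of 2058.

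The make-up of the whole group shifted towards ACSL3. The summed level of the 10 members went from 7160 and 6976 normalised counts per kilobase in the vehicle libraries to 11061 and 11341 in the octanoate libraries. Without ACSL3 and ACSL4 the sum was 1676 and 1597 in vehicle and 1617 and 1601 in octanoate, so the octanoate values lay inside the vehicle range. ACSL3 held 58.2% and 57.9% of the summed level in vehicle and 68.2% and 68.7% in octanoate. The share of ACSL4 was 18.4% and 19.2% in vehicle and 17.2% in both octanoate libraries, lower although its own level rose, since the sum grew more. Long-chain members together went from 83.4% and 83.7% of the sum to 89.9% and 90.4%, and short-chain members from 14.2% and 13.7% to 8.36% and 7.98%. The summed level of the short-chain members fell much less than their share. It was 1018 and 958.7 per kilobase in vehicle and 924.9 and 905.1 in octanoate, or 0.926-fold between the means. The medium-chain pair held 2.37% and 2.58% in vehicle and 1.72% and 1.65% in octanoate. These lower shares reflect the larger sum: the level of the pair itself was 170.02 and 179.6 per kilobase in vehicle and 189.7 and 187.5 in octanoate. These sums combine transcript levels and say nothing of enzyme activity.

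**Figure D3:**
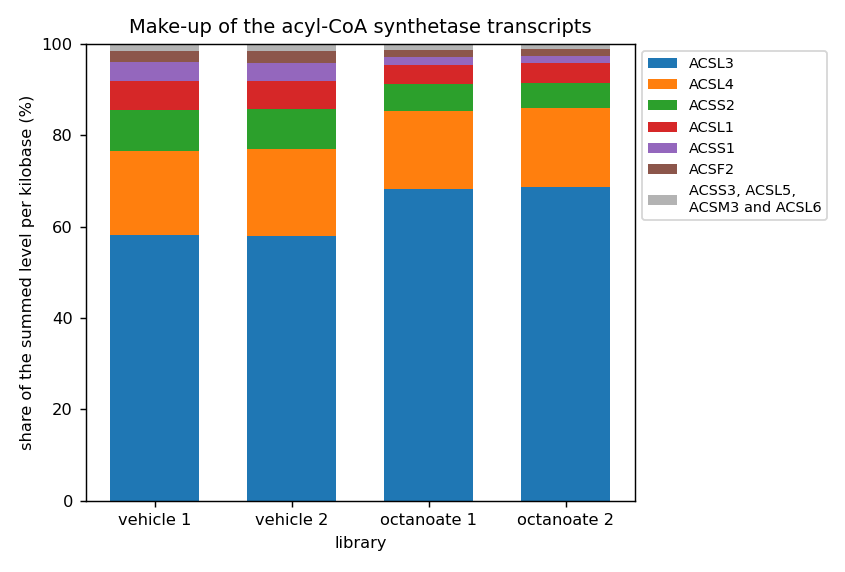
Share (%) of each member in the summed normalised counts per kilobase of exon, for each of the 4 libraries, with the 4 scarcest members pooled in grey. The ACSL3 segment grows from 58.2% and 57.9% in vehicle to 68.2% and 68.7% in octanoate, and the ACSS1 segment shrinks from 4.14% and 3.97% to 1.73% and 1.54%.

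Within a library, the ratio of ACSL3 to ACSL4 per kilobase was 3.16 and 3.02 in vehicle and 3.98 and 3.998 in octanoate. The ratio of ACSL3 to ACSL1 was 9.01 and 9.28 in vehicle and 15.97 and 16.08 in octanoate. Neither ratio overlapped between the groups. The ratios were not tested, since the smallest two-sided p of an exact permutation test is 0.333 with 2 libraries a group.

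Of the 9002 other genes with a mean of at least 1000, those whose pattern over the 4 libraries lay nearest to that of ACSL3 were GDE1, RBM47 and ERRFI1. The distances between centred log2 values were 0.0445, 0.0474 and 0.0504 in the same order. Their log2 differences were 0.87 for GDE1, which encodes a glycerophosphodiester phosphodiesterase, 0.93 for RBM47, an RNA-binding protein, and 0.85 for ERRFI1, a feedback inhibitor of EGF receptor signalling. With 4 libraries this likeness is little more than a like change and like replicate scatter.

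Outside the 10 members, 17 further genes encode acyl-CoA synthetases or close relatives, among them the SLC27 transporters with synthetase activity, the bubblegum enzymes and the rest of the ACSM cluster. Only 9 reached a mean of 10, of which 2 were called higher, 1 lower and 6 not called, a share near the 29.9% of all tested genes. SLC27A4, a very-long-chain synthetase, had a log2 difference of 0.21 (limma adjusted p = 0.0155), and SLC27A1 one of 0.20 (limma adjusted p = 0.0328). AACS, which activates acetoacetate in the cytosol, fell by 0.23 in log2 terms (limma adjusted p = 0.00541). The other ACSM genes were at the edge of detection: ACSM1, ACSM2A, ACSM2B, ACSM4, ACSM5 and ACSM6 had group means between 0.484 and 8.67 normalised counts. ACSM3 was thus the one ACSM gene with a mean of at least 10.

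A list of 12 genes that make, carry or use octanoyl groups, apart from the synthetases, was examined beside the members. Of these genes, including mitochondrial fatty acid synthesis, lipoate synthesis, CROT (the carnitine octanoyltransferase of peroxisomes) and ACADM, 11 were tested and 0 were called with limma, where 29.9% of all tested genes were called. MBOAT4 was too low to be tested. An unadjusted p under 0.05 was found for 1 of the 11, LIPT2, the octanoyltransferase of lipoate synthesis, with a log2 difference of -0.47 (limma adjusted p = 0.0578). With edgeR and with DESeq2 on recovered reads, 0 of them were called too. CROT had a log2 difference of -0.04 (limma adjusted p = 0.758).

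Of 21 tested acyltransferases of lipid synthesis, which take up acyl-CoA, 4 were called higher, 2 lower and 15 not called, a share near the 29.9% of all tested genes. GPAT3, which starts glycerolipid synthesis on the endoplasmic reticulum, rose from 10496.6 and 9833.7 normalised counts to 15869.5 and 16898.7 (log2 difference 0.69, SE 0.06, limma adjusted p = 2.04e-09). LPCAT3, which places polyunsaturated chains into phospholipids and is a known partner of ACSL4, rose by 0.28 in log2 terms (limma adjusted p = 0.00213). LPCAT2 and LPCAT1, which reacylate lysophosphatidylcholine, fell by 0.54 (limma adjusted p = 7.55e-08) and by 0.48 (limma adjusted p = 8.27e-07).

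Coenzyme A is the second substrate of every member. Of 11 tested genes of its supply 3 were called lower, 1 higher and 7 not called, a share near the 29.9% of all tested genes. PANK1, a pantothenate kinase at the first step of coenzyme A synthesis, fell by 0.51 in log2 terms (limma adjusted p = 8.04e-05). SLC25A42, the carrier of coenzyme A into mitochondria, fell by 0.37 (limma adjusted p = 0.00164), and PANK4 rose by 0.26 (limma adjusted p = 0.00337). Among 6 acyl-CoA binding proteins 1 was called, where 29.9% of all tested genes were. This was ACBD4, with a log2 difference of 0.46 (limma adjusted p = 6.59e-04). DBI, the main cytosolic one, had a log2 difference of -0.04 (limma adjusted p = 0.679).

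Around the acetate enzymes, 7 genes of acetate and acetyl-CoA handling were tested, of which 3 were called lower, 1 higher and 3 not called, where 13.7% of all tested genes were called lower and 16.2% higher. ACLY, which makes cytosolic acetyl-CoA from citrate, fell by 0.24 in log2 terms (limma adjusted p = 0.00257). SIRT1, a deacetylase known to activate ACSS2, fell by 0.23 (limma adjusted p = 0.00722). SLC16A7, a monocarboxylate transporter, rose by 0.30 (limma adjusted p = 0.00299). SIRT3, the mitochondrial deacetylase that activates ACSS1, had a log2 difference of -0.21 (limma adjusted p = 0.0877).

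Of 11 tested genes that act with or against ACSL3 and ACSL4 in ferroptosis, 3 were called higher, 3 lower and 5 not called, where 29.9% of all tested genes were called in either direction. SLC3A2, the heavy chain of the cystine transporter, rose by 0.35 in log2 terms (limma adjusted p = 5.96e-05), and AIFM2, a suppressor of lipid peroxidation, by 0.30 (limma adjusted p = 0.00110). SCD, which makes the monounsaturated acids that ACSL3 activates, fell by 0.39 (limma adjusted p = 1.47e-05), and FTH1, a ferritin subunit, by 0.33 (limma adjusted p = 7.34e-04). GPX4, the lipid peroxide reductase, had a log2 difference of 0.08 (limma adjusted p = 0.418).

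Among 15 tested regulators of lipid genes, 5 were called lower, 1 higher and 9 not called, where 13.7% of all tested genes were called lower and 16.2% higher. SREBF1, which encodes the sterol-regulated factor of fatty acid synthesis genes, fell from 17288.9 and 16367.5 normalised counts to 11308.0 and 10709.5 (log2 difference -0.61, SE 0.06, limma adjusted p = 1.18e-08). INSIG1, a brake on that factor, fell by 0.29 in log2 terms (limma adjusted p = 5.98e-04). NR1H3, the oxysterol receptor LXR-alpha, rose by 0.42 (limma adjusted p = 4.49e-05).

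**Figure D4:**
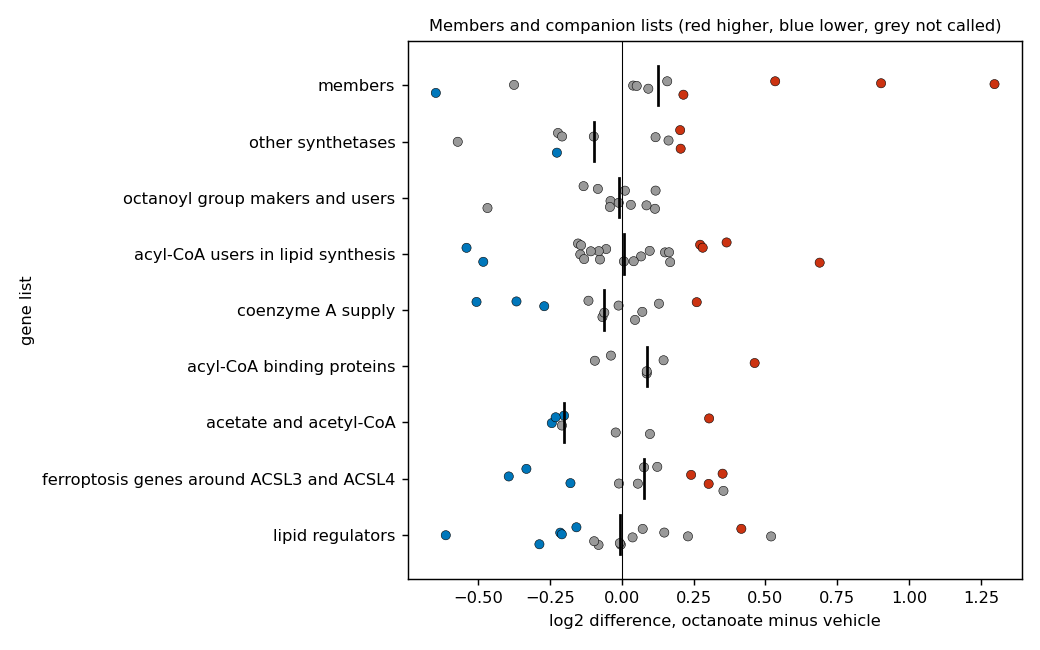
Log2 difference of octanoate minus vehicle for each tested gene of the members and of 8 companion lists, with genes called higher in red, called lower in blue and not called in grey, and the median of each list as a black bar. The members reach from -0.65 to 1.30, and the octanoyl list holds no called gene.

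The changes of ACSL3, ACSL4, ACSM3 and ACSS1 were called under all 14 alternative settings that were run. In 4 of these a library was left out, which leaves 1 library in a group. A gene's own spread then comes from the other group alone and is assumed to hold for both. ACSL3 stayed between 0.88 and 0.93 on the log2 scale, ACSL4 between 0.51 and 0.55, ACSM3 between 1.15 and 1.44 and ACSS1 between -0.71 and -0.58. Their weakest adjusted p-values were 0.0224, 0.0343, 0.0314 and 0.0421, in each case in the limma fit without an intensity trend in the variance prior.

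**Figure D5:**
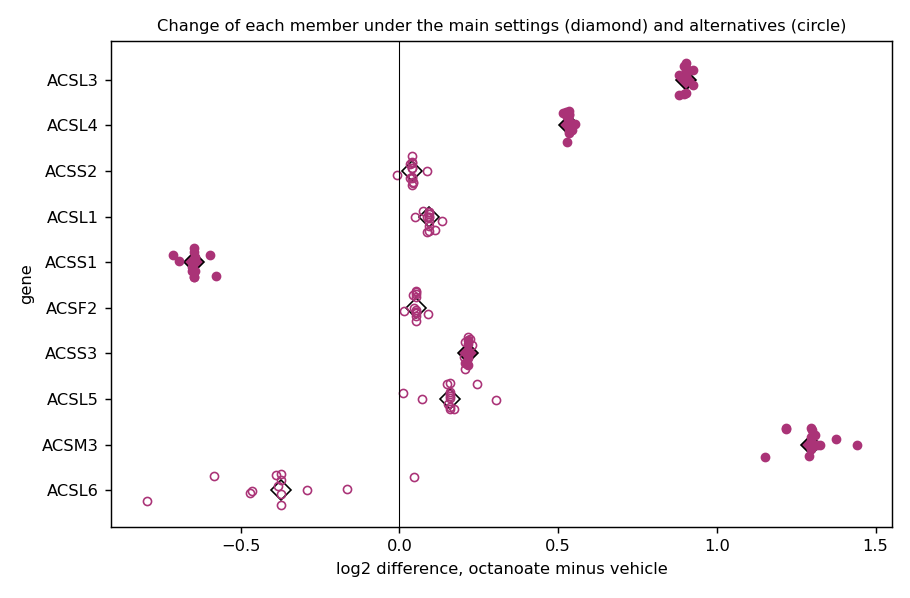
Log2 difference of octanoate minus vehicle for each member under the main settings (diamonds) and under each alternative (circles), with filled symbols where the adjusted p was under 0.05. ACSL3, ACSL4, ACSM3 and ACSS1 are filled throughout, ACSS3 is filled in part around 0.21, and the other 5 members are open throughout.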

How the data were processed

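RNA of A375 cells was sequenced in 2 vehicle and 2 octanoate libraries. The submitters' processing notes name bcl2fastq 2.17, Trim Galore, STAR 2.4, Picard, HTSeq 0.9.1, DESeq2 and the build hg38. The annotation and the use of strand in counting are not given in the sources used here. The authors deposited normalised counts per gene (a signal scaled by 1 size factor per library), and a table of log2 fold changes, standard errors, test statistics (a score) and p-values that was read only for the members. Every deposited signal value was a whole multiple (within 0.01) of what 1 read is worth, in 100% of values, and gave between 67785956 and 78005035 reads per library.

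From these values, log2(normalised count + 1) was modelled with limma 3.58.1 (R 4.3.3), with an intensity trend, over 20250 genes with a mean of at least 10, two-sided, with Benjamini-Hochberg adjustment. The script was tested on simulated data. Alternatives were other pseudocounts, filters, scalings and lengths, no intensity trend, a replicate block, each library left out, and edgeR 4.0.16 and DESeq2 1.42.0 on recovered reads. Libraries of a group differed beyond counting noise and entered as separate replicates.

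The members and the companion lists were chosen with earlier results of these data known. All members are named, as are the called genes of each companion list with the 2 smallest p in each direction, and the 3 genes nearest to the called member with the smallest p. LIPT2, CROT, DBI, SIRT3 and GPX4 were named after their values were seen. Also named outside this rule were SOX10, TYR, KRT1, MBOAT4, the other ACSM genes and genes that overlap or share sequence with a member. GPAT4 is listed under an older symbol. Gene positions, lengths and overlaps are from GENCODE 29, promoters from RefSeq (GRCh38.p14), shared stretches from blastn 2.17.0, and coding identity from Biopython 1.88.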

Additional observations from a re-analysis of the deposited data

How the results depend on the processing

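With 2 libraries a group, single low genes such as ACSL6 are limited by depth. Of 6048 genes called, 54.1% were higher. Without a filter on low values 2595 genes were called (61.5% higher), and without an intensity trend 1625 were (67.4% higher). Leaving out 1 library gave between 4382 and 4878 genes and 4 of the 10 members each time, and without vehicle replicate 1 the share of higher calls was 64.3%. The call of ACSS3 was the one lost, under 7 of 14 alternatives: its adjusted p was 0.0879 without a filter, 0.118 without the trend, 0.0595 with DESeq2, and between 0.0697 and 0.119 with 1 library left out. Without vehicle replicate 2 the uncalled log2 differences of ACSL6 (0.047, limma adjusted p = 0.968) and ACSS2 (-0.0085, limma adjusted p = 0.954) changed sign. With 1 library left out they ranged from -0.80 to 0.047 for ACSL6 and from -0.0085 to 0.088 for ACSS2. ACSL6 was not tested at a mean of at least 50 and had no adjusted p with DESeq2. The cause of these changes was not tested.

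With a replicate block 8376 genes and 5 members were called. The numbers were not shown to pair the libraries: with 2 pairs, the correlation of the deviations of same-numbered libraries was 0.126.

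ACSL3 held 58.1% of the summed level per kilobase in vehicle, 53.7% with the longest transcript as length, and 59.8% with coding length in GENCODE 29, an alternative chosen after seeing the data. Between 57.9% and 58.2% were found with 1 vehicle library left out. With coding length ACSS3 was at position 6 and ACSF2 at position 7 of the order. Coding length from a protein table was not run.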
